A study of Rattus norvegicus with 12 samples.

Results

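Oxidative phosphorylation and the tricarboxylic acid (TCA) cycle were followed through a list of 52 nuclear genes in cultured neonatal rat heart muscle cells after knockdown of Btg1, Btg2 or both. The list holds subunits of respiratory complexes I to V and enzymes of the TCA cycle, given by gene symbol. Of the 52 symbols, 51 were among the 17419 genes counted, and all 51 passed the filter on low counts. They are 19 genes of complex I, 4 of complex II, 5 of complex III, 10 of complex IV, 4 of complex V and 9 of the TCA cycle. Ndufa4 was counted with complex IV. Cox7a1, the remaining symbol, and the 13 subunits encoded by mitochondrial DNA were not analysed here.

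The cells were ventricular cardiomyocytes of wild-type Sprague-Dawley rats taken on the day of birth, cultured after fibroblasts had been separated off. They were transfected with small interfering RNA (siRNA) and collected 48 h later. The double knockdown received 10 nM of Btg1 siRNA and 10 nM of Btg2 siRNA, with no scramble siRNA. The Btg1 knockdown received 10 nM of Btg1 siRNA with 10 nM of scramble, and the Btg2 knockdown 10 nM of Btg2 siRNA with 10 nM of scramble. Cultures with one active siRNA beside scramble are described as having that siRNA alone. Control cultures received 20 nM of scramble siRNA. All 4 groups went through the same lipid transfection, and each had 3 libraries. Whether replicate libraries stem from different cultures is not stated in the labels. The p-values of single genes therefore rest on the spread of libraries within groups, pooled over the 4 groups. This spread may be technical only.

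Btg1 and Btg2 are related proteins of the BTG/TOB family that restrain proliferation and bind the CCR4-NOT complex, which shortens the poly(A) tails of messenger RNA. In the inner mitochondrial membrane, complexes I and II pass electrons from NADH and succinate to ubiquinone, complex III passes them on to cytochrome c and complex IV to oxygen, and complex V uses the resulting proton gradient to make ATP. The TCA cycle in the matrix supplies the NADH and succinate, and heart muscle, which is rich in mitochondria, draws most of its ATP from these reactions.

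Promoter sequence is shown for the 4 genes that fell with Btg2 siRNA in both pairs of groups described below, which share no libraries. It is also shown for Sucla2, 1 of the 4 genes whose response departed from additive siRNA effects. Each is the 250 bases upstream of the gene's start, taken from RefSeq on the rat assembly GRCr8 and written 5′ to 3′ on the strand of the gene. The windows are at chr4:40975560-40975809 for Ndufa4, chr13:90082451-90082700 for Fh, chr8:59850642-59850891 for Sdhd and chr18:28631885-28632134 for Ndufa2, all on the minus strand. That of Sucla2 is on the plus strand at chr15:55161644-55161893. Capitals mark a match, on either strand, to CCGGAAG (the core bound by ETS-family factors such as GABP) in Sdhd and Ndufa2, and to GCGCA and GCGC set 1 base apart (the site of nuclear respiratory factor NRF1) in Sucla2. The windows of Ndufa4 and Fh held no match to either.
Ndufa4: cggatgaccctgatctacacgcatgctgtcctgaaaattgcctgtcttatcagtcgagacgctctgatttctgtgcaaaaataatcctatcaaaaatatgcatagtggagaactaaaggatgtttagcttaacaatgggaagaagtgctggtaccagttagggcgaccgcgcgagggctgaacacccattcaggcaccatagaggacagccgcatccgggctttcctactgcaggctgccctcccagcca
Fh: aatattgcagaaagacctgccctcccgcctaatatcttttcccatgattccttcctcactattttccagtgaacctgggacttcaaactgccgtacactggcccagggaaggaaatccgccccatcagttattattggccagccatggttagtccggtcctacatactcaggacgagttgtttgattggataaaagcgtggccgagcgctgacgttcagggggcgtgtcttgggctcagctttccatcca
Sdhd: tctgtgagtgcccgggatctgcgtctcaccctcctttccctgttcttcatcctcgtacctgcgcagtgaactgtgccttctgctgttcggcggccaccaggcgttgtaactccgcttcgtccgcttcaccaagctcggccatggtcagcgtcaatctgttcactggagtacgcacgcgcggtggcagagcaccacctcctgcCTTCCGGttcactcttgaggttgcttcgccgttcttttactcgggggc
Ndufa2: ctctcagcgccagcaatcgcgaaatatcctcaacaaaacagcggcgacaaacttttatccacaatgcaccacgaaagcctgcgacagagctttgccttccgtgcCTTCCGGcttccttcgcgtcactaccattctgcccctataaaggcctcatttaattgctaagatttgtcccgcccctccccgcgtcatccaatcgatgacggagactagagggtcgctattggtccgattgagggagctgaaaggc
Sucla2: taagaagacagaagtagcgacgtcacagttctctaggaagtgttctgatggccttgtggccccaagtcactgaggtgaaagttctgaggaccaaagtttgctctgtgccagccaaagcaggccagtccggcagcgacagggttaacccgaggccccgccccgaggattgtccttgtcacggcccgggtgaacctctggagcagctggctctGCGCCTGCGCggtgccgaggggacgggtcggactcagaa

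A promoter window was available for 44 of the 51 genes. CCGGAAG occurred in 13 of the 44 windows (29.5%), against 14.6% of the 9810 windows of tested genes and 7.74% of all 27457 rat windows. The NRF1 site occurred in 6 of the 44 windows (13.6%), against 8.75% of tested genes and 4.17% of all windows. The letters TCAAGGTCA, the site of oestrogen-related receptors, and AAGATGGCG, the site of YY1, were in 0 of the 44 windows, against 0.214% and 1.21% of tested genes and 0.368% and 0.736% of all windows. No matches overlapped each other. Among the genes that fell in the Btg2 knockdown, 5 of 18 windows held CCGGAAG and 3 of 18 held the NRF1 site, and among those that did not pass 8 of 26 and 3 of 26 did. These are matches of letters, and binding was not measured.

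The 51 genes were among the most abundant transcripts of these cultures. In scramble cultures their levels in TPM, a share of all transcripts corrected for gene length, ran from 3881 ± 88.1 for Atp5f1b, the catalytic beta subunit of ATP synthase, to 49.0 ± 1.87 for Ndufs6, an accessory subunit of complex I (SD, n = 3). The gene in the middle of the order, Ndufa1, had 592.5 ± 37.6 TPM. Levels of 49 of the 51 lay above the 90th percentile of the 12535 genes tested and 43 above the 95th, and the 2 below the 90th percentile were Uqcrb and Ndufs6. After Atp5f1b came Atp5f1a with 2219 ± 40.1 TPM and Cox4i1 with 2146 ± 36.0 TPM, whose libraries did not overlap. Idh2 (1018 ± 10.1 TPM) and Atp5f1c (1026 ± 6.74 TPM) lay within their spread of each other, as did Sdhc (630.2 ± 13.4 TPM), Sdha (627.6 ± 11.7 TPM) and Uqcrc2 (627.2 ± 13.1 TPM). Together the 51 genes made up 3.74 to 4.23% of the TPM of all genes counted in the 12 libraries. The 13 subunits encoded by mitochondrial DNA were not found among those genes under the symbols searched. The median coefficient of variation of the 51 genes between scramble libraries was 2.31%. Ndufs3, Ndufs6, Ndufa2, Ndufb5, Uqcrc2, Cox7a2 and Idh3b each overlap another tested gene in the RefSeq annotation of GRCr8, and since the strand setting of the counting is not given, reads of such partners, and of processed pseudogene copies, cannot be told apart.

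**Figure D1:**
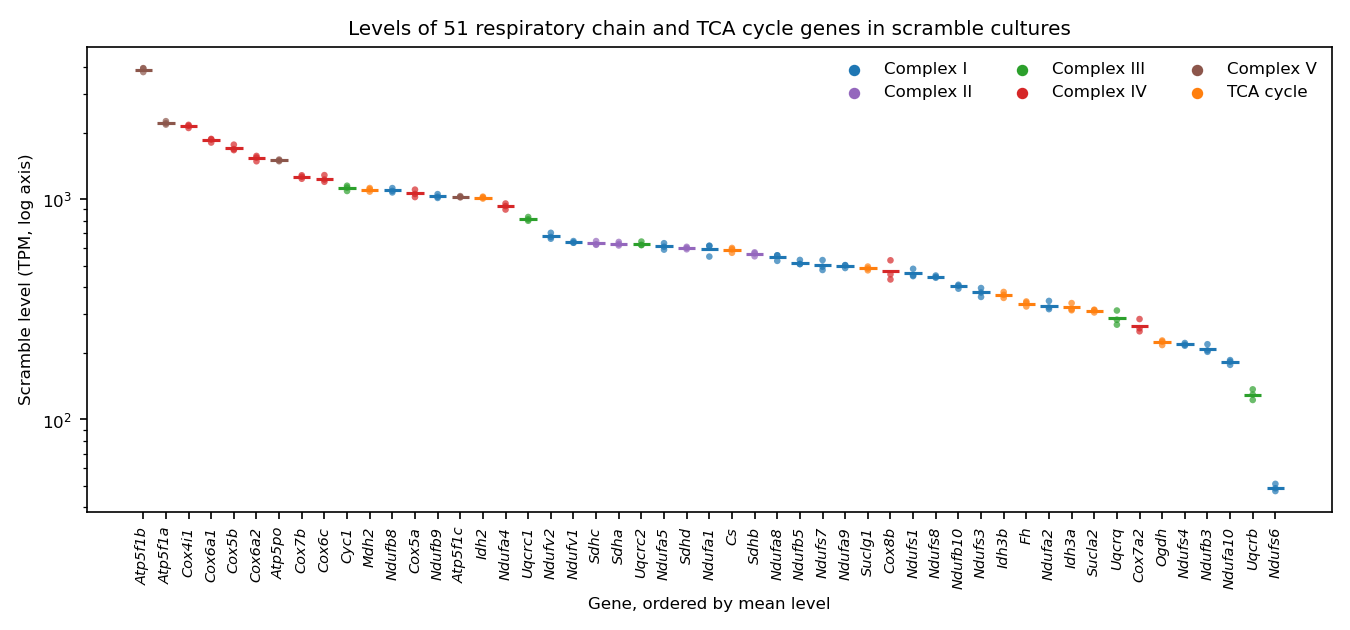
Level of each of the 51 genes in scramble cultures (TPM, log axis), ordered by mean. Points are the 3 libraries, bars their mean, and colours the complex. Levels run from 3881 TPM for Atp5f1b to 49.0 TPM for Ndufs6, and complex IV and V genes fill most of the top places.

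The siRNAs lowered their targets. Btg1 was at 18.3% of its scramble level in the double knockdown, 23.4% in the Btg1 knockdown and 105.7% in the Btg2 knockdown, and Btg2 was at 49.6%, 126.6% and 61.5% in the same order. Total counts per library ran from 24434925 to 46206581, and the 51 genes had between 202 and 157442 counts each in a library. Cardiomyocyte markers (11 of 12 counted, none at 0 in all libraries) summed to 26420 to 27050 TPM in the double knockdown, 24330 to 26790 with Btg1 siRNA alone, 26380 to 29480 with Btg2 siRNA alone and 25140 to 25460 in scramble cultures. Of these 11 markers, 1, 3 and 3 were called higher and 3, 5 and 0 lower in the double, Btg1 and Btg2 knockdowns. All libraries of the double and the Btg2 knockdown lay above all scramble libraries in this sum. Fibroblast markers (10 of 10 counted, none at 0 in all libraries) summed to 5512 to 6239 TPM in the double knockdown, 5572 to 6352 with Btg1 siRNA alone, 6686 to 6826 with Btg2 siRNA alone and 6906 to 7075 in scramble cultures, with 8, 8 and 5 of the 10 called lower in the double, Btg1 and Btg2 knockdowns. Smooth muscle markers (5 of 5) summed to 2751 to 3000, 2993 to 3724, 2944 to 3308 and 2552 to 2790 TPM in the same 4 groups, and 3, 2 and 1 of the 5 were called higher and 1 lower in each knockdown. Endothelial markers (8 of 8) summed to 46.1 to 51.8 TPM in the double knockdown, 56.9 to 64.7 with Btg1 siRNA alone, 55.3 to 57.2 with Btg2 siRNA alone and 64.8 to 70.3 in scramble cultures, with 6, 1 and 4 of the 8 called lower and 1, 1 and 0 higher. Macrophage markers (7 of 7) summed to 35.6 to 36.5 TPM in the double knockdown, 35.6 to 41.4 with Btg1 siRNA alone, 31.9 to 32.9 with Btg2 siRNA alone and 45.9 to 53.4 in scramble cultures, with 2, 1 and 4 of the 7 called lower. For both lists every knockdown library lay below every scramble library. Erythroid markers (4 of 4) summed to between 3.7 and 6.8 TPM over all libraries. None of these markers was at 0 in all libraries. They were called at an edgeR adjusted p under 0.05, as were all genes below. Of all tested genes 19.4%, 18.7% and 16.4% were called higher in the double, Btg1 and Btg2 knockdowns. Called lower were 19.5%, 17.8% and 13.6% in the same order. In such bulk RNA, fewer cells of a type and less RNA per cell cannot be told apart. The part of these marker shifts in the results below was not tested.

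Each siRNA moved a different share of the genes, by small amounts. With Btg2 siRNA alone, 20 of the 51 genes fell and 0 rose, across all 5 complexes and the TCA cycle (39.2% of the 51), and DESeq2 and limma likewise called 0 higher. Of all 12535 tested genes 30.0% were called, 16.4% higher and 13.6% lower. With Btg1 siRNA alone, 6 TCA cycle genes rose and the complex IV gene Cox8b fell (13.7%, against 36.5% of all tested genes, 18.7% higher and 17.8% lower). With both siRNAs, 6 genes rose and 5 fell (21.6%, against 38.9%, 19.4% higher and 19.5% lower). Calls were made by edgeR's quasi-likelihood test at a Benjamini-Hochberg adjusted p of 0.05 over all tested genes. The median log2 change of the 51 genes was -0.01 in the double knockdown, 0.04 in the Btg1 knockdown and -0.10 in the Btg2 knockdown, each against scramble, where the median of all tested genes was -0.01, -0.00112 and -0.00168. Called changes had a median size of 0.17, 0.18 and 0.18 on the log2 scale in the same order. The groups of 3 libraries did not overlap for 14, 12 and 26 of the 51 genes, against 46.8%, 50.1% and 45.7% of all tested genes.

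The split of calls in the double knockdown moved with the scaling and with single libraries. It was 8 higher and 4 lower with RLE size factors or DESeq2, and 6 higher and 7 lower with library size alone. Without double knockdown replicate 3, 19 genes were called (6 higher, 13 lower), and without double knockdown replicate 2 or scramble replicate 2, 7 were called. Ndufs1 lost its call without double knockdown replicate 2 or scramble replicate 1 or 2, and Ndufs4 without double knockdown replicate 2 or any 1 scramble replicate. Ndufs8 lost it without double knockdown replicate 1 or 2 or any 1 scramble replicate, and Ndufa1 without double knockdown replicate 1 or 2 or scramble replicate 1 or 2 (edgeR adjusted p between 0.053 and 0.24 in those fits). Counting other settings too, the call was lost in 8 of 14 alternatives for Ndufs4, 12 for Ndufs8 and 6 for Ndufa1. The other 7 calls held under all alternatives run.

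Adding Btg1 siRNA to Btg2 siRNA set the double knockdown above the Btg2 knockdown. In that comparison 24 of the 51 genes rose and 0 fell (47.1%, against 32.2% of all tested genes, 15.2% higher and 17.0% lower). The median log2 change was 0.11 over the 51 genes against 0.0015 over all tested genes. The 24 were 10 genes of complex I, 3 of complex II, 2 of complex III and all 9 TCA cycle genes, with 0 of 10 in complex IV and 0 of 4 in complex V, where 1 and 0 had an unadjusted p under 0.05, DESeq2 called 0 and limma 1 of complex IV. Adding Btg2 siRNA to Btg1 siRNA, the double against the Btg1 knockdown, lowered 6 genes and raised 0 (11.8%, against 22.3% of all tested genes, 10.3% higher and 11.9% lower). The median was -0.04 against -0.00119. The number of genes in this last comparison was 14 without double knockdown replicate 3, 3 without double knockdown replicate 2 or Btg1 knockdown replicate 2, and 2 without double knockdown replicate 1 or Btg1 knockdown replicate 3. Groups did not overlap for 24 and 10 of the 51 genes, against 42.1% and 34.6% of all tested genes.

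**Figure D2:**
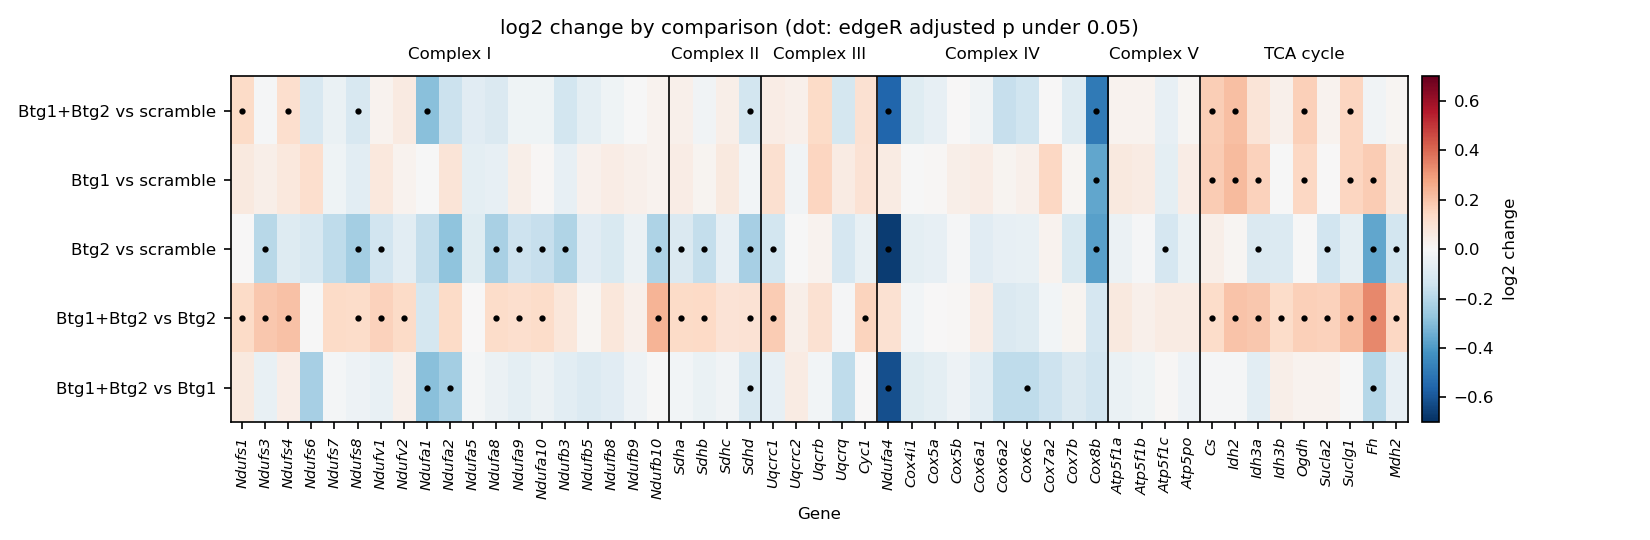
Log2 change of each of the 51 genes (columns, grouped by complex) in 5 comparisons (rows), with dots where edgeR's adjusted p was under 0.05. In the Btg2 knockdown 20 genes are lower, in the double against the Btg2 knockdown 24 are higher, and Ndufa4 is lower in the 3 rows that set a group with Btg2 siRNA against one without it.

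Summed over each complex in TPM, the Btg2 knockdown lay below scramble cultures in complexes I to IV and the TCA cycle. Complex I genes summed to 9217 ± 445 TPM in the double knockdown, 9470 ± 33.1 with Btg1 siRNA alone, 8546 ± 116 with Btg2 siRNA alone and 9380 ± 200 in scramble cultures (SD, n = 3 each). The sum of complex II was at 99.6%, 101.8% and 90.7% of scramble in the double, Btg1 and Btg2 knockdowns, and that of complex III at 104.8%, 105.1% and 95.3%. Complex IV stood at 92.8%, 100.8% and 92.5%, and the 3 libraries of the double and of the Btg2 knockdown lay below all scramble libraries. Only 2 of its 10 genes were called in those groups, Ndufa4 and Cox8b. Ndufa4 had means of 636.5 and 583.5 TPM there against 928.2 with scramble, and Cox8b 337.0 and 361.8 against 472.2. Complex V sums stood at 101.8%, 102.7% and 97.1% and overlapped with scramble in each case. TCA cycle genes summed to 5154 ± 79.3 TPM in the double knockdown, 5201 ± 41.2 with Btg1 siRNA alone, 4504 ± 66.4 with Btg2 siRNA alone and 4758 ± 89.4 in scramble cultures (SD, n = 3 each), with no overlap between each knockdown and scramble. Sums are weighted towards the most abundant genes and were given no test.

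**Figure D3:**
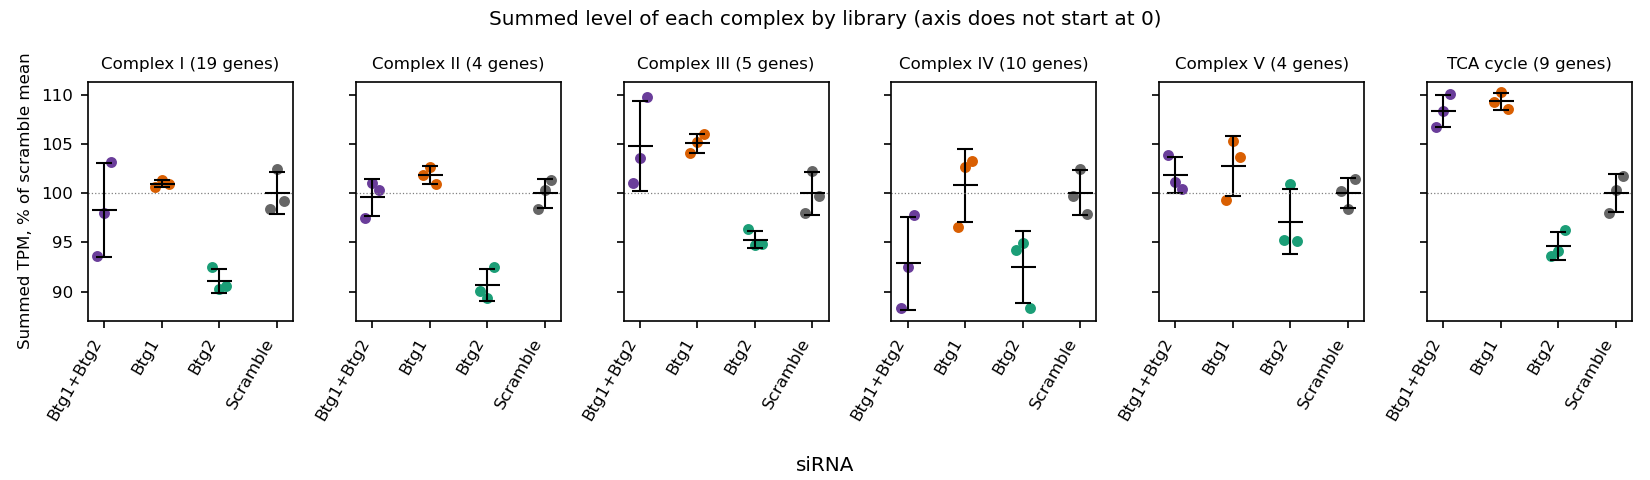
Summed TPM of the genes of each complex, as a percentage of the scramble mean (the axis does not start at 0). Points are libraries, bars the mean and SD of 3. The TCA cycle sum is above scramble at 108.3% and 109.3% in the double and Btg1 knockdowns and below it at 94.7% in the Btg2 knockdown, where complexes I and II are at 91.1% and 90.7%.

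Complex I fell in part in the Btg2 knockdown, where 9 of 19 genes were lower by 0.14 to 0.28 on the log2 scale, and 0 of 19 passed in the Btg1 knockdown, where 1 had an unadjusted p under 0.05 and DESeq2 and limma called 0. They code for subunits of the NADH-oxidising, the ubiquinone-binding and the membrane parts of the complex. Values of single libraries are given in CPM, counts scaled to library size and not corrected for gene length. Ndufv1, which binds NADH and the flavin that takes up its electrons, had 479, 475 and 503 CPM with both siRNAs, 492, 511 and 509 with Btg1 siRNA alone, 444, 438 and 424 with Btg2 siRNA alone and 478, 484 and 473 with scramble. The 3 Btg2 knockdown libraries lay below the other 9. Ndufs8 and Ndufs3, core subunits of the arm that hands electrons to ubiquinone, fell by 0.24 and 0.20 on the log2 scale. Ndufs8 had 147, 154 and 168 CPM with both siRNAs, 158, 161 and 162 with Btg1 siRNA alone, 146, 143 and 139.7 with Btg2 siRNA alone and 172, 168 and 166 with scramble. Ndufs3 had 185, 199 and 218 CPM with both siRNAs, 209.5, 205 and 209 with Btg1 siRNA alone, 180.2, 175 and 173 with Btg2 siRNA alone and 193, 211 and 200.3 with scramble. The Btg2 knockdown was below all other libraries for Ndufs8 and Ndufs3.

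Accessory subunits followed. Ndufb10, of the distal membrane arm, had 131, 146 and 146 CPM with both siRNAs, 139, 139.8 and 145 with Btg1 siRNA alone, 115, 125 and 118 with Btg2 siRNA alone and 136, 139.7 and 140.3 with scramble. Its log2 change was -0.22 ± 0.05 (SE, edgeR adjusted p = 0.0009) in the Btg2 knockdown and 0.24 ± 0.05 (SE, adjusted p = 0.00027) in the double against the Btg2 knockdown. The libraries of the other 3 groups overlapped, and those of the Btg2 knockdown lay below them. Ndufa8, a subunit on the intermembrane side, had 152, 153 and 168 CPM with both siRNAs, 157, 162 and 168 with Btg1 siRNA alone, 145, 142 and 145 with Btg2 siRNA alone and 163, 172 and 171 with scramble. It changed by -0.23 ± 0.04 (SE, edgeR adjusted p = 0.00026) in the Btg2 knockdown. Ndufa2, an accessory subunit of the NADH-oxidising module, had 75.8, 79.8 and 95.3 CPM with both siRNAs, 96.02, 98.5 and 102 with Btg1 siRNA alone, 81.1, 75.8 and 72.03 with Btg2 siRNA alone and 90.03, 97.7 and 90.8 with scramble. Its change was -0.28 ± 0.07 (SE, edgeR adjusted p = 0.0034) in the Btg2 knockdown and -0.24 ± 0.07 (SE, adjusted p = 0.014) in the double against the Btg1 knockdown, a call lost without double knockdown replicate 1 or 2 or Btg1 knockdown replicate 3 (adjusted p between 0.062 and 0.08). Ndufa9, of the ubiquinone-binding module, had 280.5, 280.1 and 278 CPM with Btg2 siRNA alone against 304, 312 and 309.8 with scramble, and Ndufa10, of the membrane arm, had 159, 163 and 169 CPM with Btg2 siRNA alone against 179, 187 and 183 with scramble. Ndufb3, another distal arm subunit, had 67.3, 64.9 and 64.4 CPM with Btg2 siRNA alone against 73.9, 79.7 and 74.2 with scramble. The 3 Btg2 knockdown libraries were below the 3 scramble libraries for all 9 genes, which were called from these same libraries. Groups did not overlap for any of the 20 genes called in this comparison, and for 45.7% of all tested genes. The 10 complex I genes that did not pass in the Btg2 knockdown had log2 changes of -0.18 to 0.00226.

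In the double knockdown only 4 complex I genes passed against scramble, 2 in each direction. Ndufs1, the large iron-sulphur subunit of the NADH-oxidising module, had 634, 656 and 613 CPM with both siRNAs against 563.6, 566 and 602 with scramble. It changed by 0.14 ± 0.04 (SE, edgeR adjusted p = 0.01). Ndufs1 had 599.6, 606 and 611 CPM with Btg1 siRNA alone and 548, 592 and 595 with Btg2 siRNA alone. Ndufs4, an accessory subunit that stabilises that module, had 170.2, 191 and 175 CPM with both siRNAs, 179, 176 and 165 with Btg1 siRNA alone, 155, 153 and 156 with Btg2 siRNA alone and 163, 168 and 164 with scramble. It changed by 0.12 ± 0.04 (SE, edgeR adjusted p = 0.035). Ndufa1, a small membrane subunit needed for assembly, had 94.6, 94.3 and 116 CPM with both siRNAs, 119.5, 124 and 131 with Btg1 siRNA alone, 124, 109 and 99.99 with Btg2 siRNA alone and 130.3, 129 and 115 with scramble. Its changes were -0.29 ± 0.09 (SE, edgeR adjusted p = 0.028) against scramble and -0.29 ± 0.09 (SE, adjusted p = 0.046) against the Btg1 knockdown. Double knockdown replicate 3 was the highest of its group for Ndufa1 and overlapped with scramble, and the call against the Btg1 knockdown was lost without double knockdown replicate 1 or 2 or any 1 Btg1 knockdown replicate (adjusted p between 0.062 and 0.16). Counting other settings too, 7 of 14 alternatives lost that call. Ndufs8 was lower by 0.11 on the log2 scale, with overlapping groups, and did not pass with RLE size factors, DESeq2 or 10 other alternatives. All these calls depended on single libraries, as given above for the double knockdown.

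Against the Btg2 knockdown, 10 complex I genes rose in the double knockdown by 0.12 to 0.24 on the log2 scale, namely Ndufs1, Ndufs3, Ndufs4, Ndufs8, Ndufv1, Ndufv2, Ndufa8, Ndufa9, Ndufa10 and Ndufb10. Ndufs4 changed by 0.21 ± 0.04 (SE, edgeR adjusted p = 0.00063) and Ndufv1 by 0.16 ± 0.04 (SE, adjusted p = 0.0016). Ndufv2, an iron-sulphur subunit beside Ndufv1, had 287, 312 and 319.5 CPM with both siRNAs against 271, 289.8 and 276 with Btg2 siRNA alone, with overlapping groups. Among these calls, Ndufa9 lost its own without double knockdown replicate 2, Ndufs1 also without Btg2 knockdown replicate 1, and Ndufa10 also without Btg2 knockdown replicate 1 or 2. Ndufs8 and Ndufa8 lost theirs without double knockdown replicate 3 or Btg2 knockdown replicate 2 or 3. Ndufv2, and Sdhd in complex II, lost theirs without double knockdown replicate 2 or 3 or Btg2 knockdown replicate 1 or 3 (edgeR adjusted p between 0.05 and 0.15 in all these fits). Counting other settings too, 4 of 14 alternatives lost the call of Ndufs8 and 5 of 14 that of Sdhd. The calls of Ndufs3, Ndufs4, Ndufv1 and Ndufb10 held under all alternatives run.

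Complex II, succinate dehydrogenase, also belongs to the TCA cycle. In the Btg2 knockdown 3 of its 4 genes fell, and 0 of 4 passed in the Btg1 knockdown, also at an unadjusted p under 0.05 and by DESeq2 and limma. Sdhd, a membrane anchor that binds ubiquinone, had 323, 348 and 344 CPM with both siRNAs, 362, 369.9 and 365 with Btg1 siRNA alone, 315, 319 and 312 with Btg2 siRNA alone and 367, 376 and 369 with scramble. All 6 libraries with Btg2 siRNA lay below all 6 without it. Its change was -0.13 ± 0.04 (SE, edgeR adjusted p = 0.0056) in the double knockdown, -0.23 ± 0.04 (SE, adjusted p = 3.2e-05) in the Btg2 knockdown and -0.11 ± 0.04 (SE, adjusted p = 0.029) in the double against the Btg1 knockdown. That last call was lost in 8 of 14 alternatives. Among them were the fits without double knockdown replicate 1 or any 1 Btg1 knockdown replicate (edgeR adjusted p between 0.051 and 0.15). The limma fit called 0 of the 4 genes there. Sdhb, the iron-sulphur subunit, had 258, 272 and 285 CPM with both siRNAs, 279, 279 and 282 with Btg1 siRNA alone, 247, 245 and 248 with Btg2 siRNA alone and 271, 282 and 277 with scramble. It changed by -0.17 ± 0.04 (SE, edgeR adjusted p = 0.0018) in the Btg2 knockdown. Sdha, the flavoprotein that oxidises succinate, had 742, 729 and 749.8 CPM with both siRNAs, 733, 756 and 759.9 with Btg1 siRNA alone, 676, 678 and 669 with Btg2 siRNA alone and 714, 723 and 734 with scramble. It changed by -0.10 ± 0.03 (SE, edgeR adjusted p = 0.03) in the Btg2 knockdown. The call of Sdha was lost without scramble replicate 2 or 3 or any 1 Btg2 knockdown replicate (adjusted p between 0.055 and 0.11). Sdhc, the other anchor, had 345, 356 and 356 CPM with Btg2 siRNA alone against 364, 361 and 373 with scramble and did not pass.

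In complex III 1 gene passed against scramble, in the Btg2 knockdown. Uqcrc1, a core subunit facing the matrix, had 648, 635 and 722 CPM with both siRNAs, 677, 708 and 703 with Btg1 siRNA alone, 608, 585 and 577 with Btg2 siRNA alone and 636, 659 and 639 with scramble. Its changes were -0.13 ± 0.04 (SE, edgeR adjusted p = 0.029) in the Btg2 knockdown and 0.18 ± 0.04 (SE, adjusted p = 0.0026) in the double against the Btg2 knockdown. The call in the Btg2 knockdown was lost without scramble replicate 2 or 3 or Btg2 knockdown replicate 2 or 3 (adjusted p between 0.056 and 0.12). Cyc1, the cytochrome that passes electrons to cytochrome c, had 705, 716 and 771 CPM with both siRNAs, 694, 738 and 755 with Btg1 siRNA alone, 662, 667 and 639 with Btg2 siRNA alone and 662, 697 and 679 with scramble. It passed only in the double against the Btg2 knockdown (0.16 ± 0.04 (SE, edgeR adjusted p = 0.006)). Uqcrb, Uqcrq and Uqcrc2 passed in no comparison, and none of the 5 complex III genes passed against scramble in the double or the Btg1 knockdown, where log2 changes ran from -0.12 to 0.13 and from -0.02 to 0.15, with 1 and 2 at an unadjusted p under 0.05. DESeq2 called 1 higher in the double and 2 higher in the Btg1 knockdown, and limma 1 higher in each.

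Ndufa4 showed the largest change of the 51 genes in each of the 3 comparisons that add Btg2 siRNA to a group without it. Its protein was first assigned to complex I and is now counted as a subunit of complex IV, cytochrome c oxidase. Ndufa4 had 234, 252 and 267 CPM with both siRNAs, 366, 389 and 396 with Btg1 siRNA alone, 239.9, 239 and 219 with Btg2 siRNA alone and 371, 379.8 and 354 with scramble. The 6 libraries with Btg2 siRNA lay between 218.7 and 267 CPM and the 6 without it between 354 and 396 CPM. The transcript was at 68.0% of its scramble level in the double knockdown and 63.1% in the Btg2 knockdown, and at 65.3% of its level in the Btg1 knockdown in the double. By edgeR's quasi-likelihood test the log2 change was -0.56 ± 0.05 (SE, edgeR adjusted p = 4.7e-09) in the double knockdown, -0.66 ± 0.05 (SE, adjusted p = 1.2e-09) in the Btg2 knockdown and -0.61 ± 0.05 (SE, adjusted p = 8.3e-09) in the double against the Btg1 knockdown. In the Btg1 knockdown it was 0.06 ± 0.05 (SE, edgeR adjusted p = 0.37), which did not pass. The 3 calls held under all alternatives run.

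Cox8b, the heart and skeletal muscle isoform of a small complex IV subunit, was the other complex IV gene to fall against scramble, and the only gene of the 51 called in all 3 comparisons with scramble. Cox8b had 42.8, 55.6 and 62.9 CPM with both siRNAs, 56.4, 59.5 and 61.5 with Btg1 siRNA alone, 60.2, 58.9 and 56.00 with Btg2 siRNA alone and 73.6, 84.9 and 69.04 with scramble. Every knockdown library lay below every scramble library. Its log2 change was -0.50 ± 0.12 (SE, edgeR adjusted p = 0.0073) in the double knockdown, -0.36 ± 0.12 (SE, adjusted p = 0.036) in the Btg1 knockdown and -0.38 ± 0.12 (SE, adjusted p = 0.036) in the Btg2 knockdown. The call in the double knockdown held under all alternatives run. The call in the Btg1 knockdown was lost with no filter on low counts, without scramble replicate 1 or 2 and without any 1 Btg1 knockdown replicate (adjusted p between 0.06 and 0.11), and the call in the Btg2 knockdown was lost with no filter, without scramble replicate 1 or 2 and without any 1 Btg2 knockdown replicate (adjusted p between 0.059 and 0.11).

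The ratio of Cox8b to Cox8a, its widely expressed counterpart, was 0.236 ± 0.0354 in the double knockdown, 0.230 ± 0.00541 with Btg1 siRNA alone, 0.256 ± 0.014 with Btg2 siRNA alone and 0.313 ± 0.0224 in scramble cultures (TPM over TPM, SD, n = 3 each). The ratio of Cox6a2, another heart and muscle isoform, to Cox6a1 was 0.756 ± 0.00651 in the double knockdown, 0.810 ± 0.0211 with Btg1 siRNA alone, 0.838 ± 0.0435 with Btg2 siRNA alone and 0.829 ± 0.00745 in scramble cultures. The groups did not overlap for Cox8b in each knockdown against scramble and for Cox6a2 in the double knockdown against each other group. Each of these 6 gave p = 0.1 by a two-sided exact permutation test of the log2 ratio (0.167 adjusted over 10 tests), the smallest p that 3 against 3 libraries allow, so none of the 10 could pass.

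Cox6c, a further small subunit, had 237, 256 and 272 CPM with both siRNAs against 274, 294 and 298 with Btg1 siRNA alone. It fell in the double against the Btg1 knockdown (-0.18 ± 0.06 (SE, edgeR adjusted p = 0.027)), a call lost without double knockdown replicate 1 or 2 or Btg1 knockdown replicate 2 or 3 (adjusted p between 0.078 and 0.12). The other 7 complex IV genes (Cox4i1, Cox5a, Cox5b, Cox6a1, Cox6a2, Cox7a2 and Cox7b) passed in no comparison. In complex V, Atp5f1c, the gamma subunit of the stalk, had 525, 561 and 533 CPM with both siRNAs, 527, 544 and 539 with Btg1 siRNA alone, 503, 534 and 518 with Btg2 siRNA alone and 561, 562 and 563 with scramble. It passed only in the Btg2 knockdown, with -0.12 ± 0.04 (SE, edgeR adjusted p = 0.019). That call was lost without scramble replicate 2 or 3 or Btg2 knockdown replicate 1 or 3 (adjusted p between 0.053 and 0.098). Atp5f1b, the most abundant of the 51, had 3624, 3464 and 3462 CPM with both siRNAs, 3347, 3692 and 3728 with Btg1 siRNA alone, 3316, 3718 and 3270.0 with Btg2 siRNA alone and 3511, 3368 and 3486 with scramble. It had overlapping groups and no call in any comparison, as for Atp5f1a and Atp5po (in the Btg1 knockdown 0 of the 4 also by DESeq2 and limma, and 0 at an unadjusted p under 0.05).

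**Figure D4:**
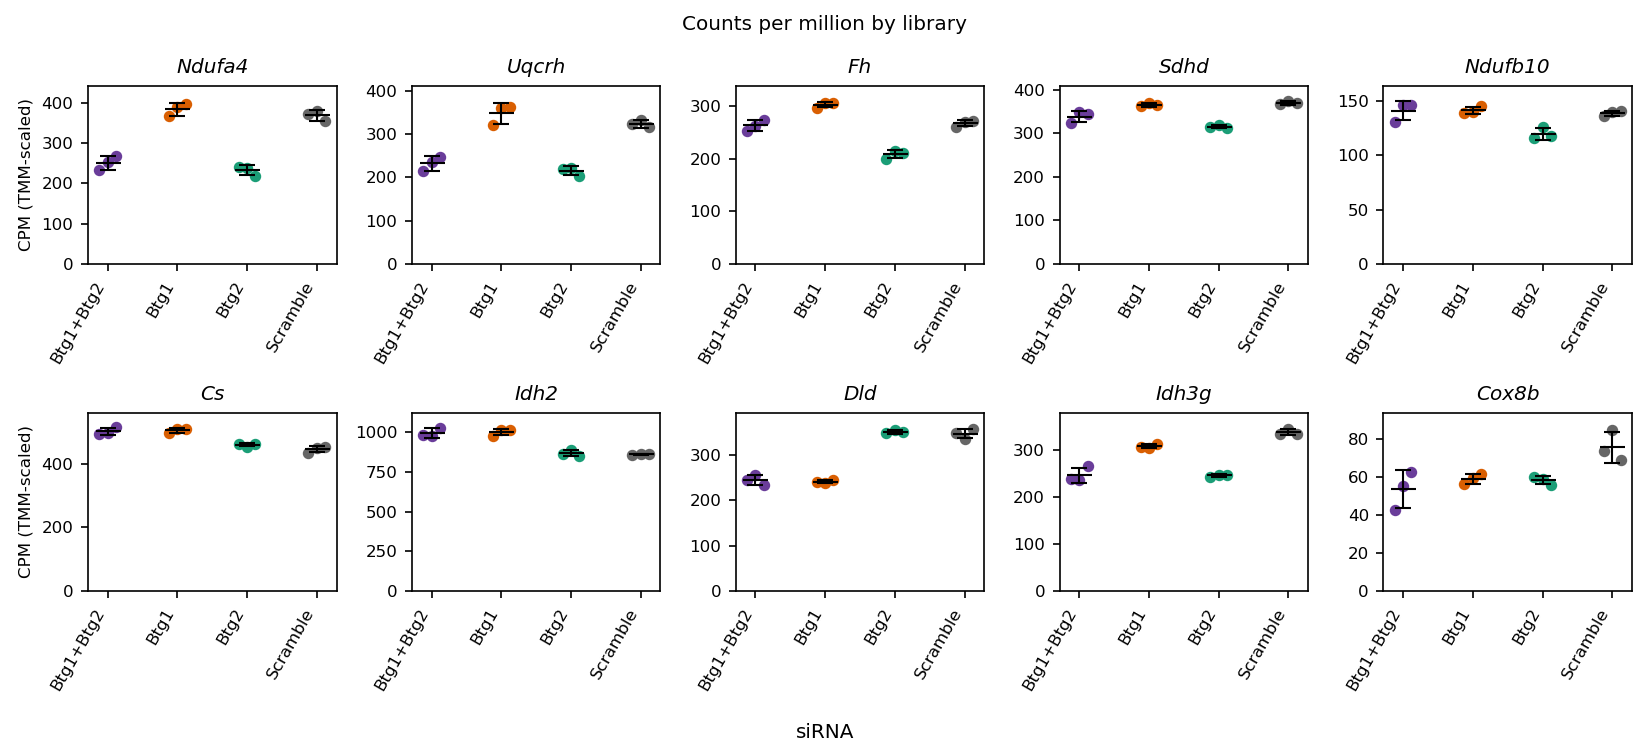
Counts scaled to library size (CPM) by library for 10 genes, 7 of the 51 and the related Uqcrh, Dld and Idh3g. Points are libraries, bars the mean and SD of 3. Ndufa4 and Uqcrh are lower in both groups with Btg2 siRNA, Fh is at 209 CPM in the Btg2 knockdown and 303 in the Btg1 knockdown, and Dld is lower in both groups with Btg1 siRNA.

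Of the 9 TCA cycle genes listed, 6 rose in the Btg1 knockdown, by 0.14 to 0.22 on the log2 scale, and 0 fell. Of all tested genes 18.7% were higher there. All 6 calls held under all alternatives run. Among 18 other genes of the cycle and of pyruvate dehydrogenase, described below, 7 rose and 7 fell in that knockdown. In the double knockdown 4 of the 6 rose as well (Cs, Idh2, Ogdh and Suclg1), where 19.4% of all tested genes were higher. In the Btg2 knockdown 4 of 9 fell (Idh3a, Sucla2, Fh and Mdh2) and 0 rose, where 13.6% of all tested genes were lower. In the double against the Btg2 knockdown all 9 rose, by 0.13 to 0.34 on the log2 scale, against 15.2% of all tested genes.

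Cs, citrate synthase, which opens the cycle, had 495, 497 and 514 CPM with both siRNAs, 497, 509 and 509.9 with Btg1 siRNA alone, 462, 454 and 463 with Btg2 siRNA alone and 435, 449 and 453 with scramble. The 6 libraries with Btg1 siRNA lay above the 6 without it. Cs changed by 0.17 ± 0.03 (SE, edgeR adjusted p = 0.00036) in the double knockdown and 0.18 ± 0.03 (SE, adjusted p = 0.00025) in the Btg1 knockdown. Idh2, the NADP-dependent mitochondrial isocitrate dehydrogenase, had 981, 976 and 1030.5 CPM with both siRNAs, 979, 1016 and 1014 with Btg1 siRNA alone, 865, 889 and 850.2 with Btg2 siRNA alone and 856, 863 and 864 with scramble. It was again higher in each library with Btg1 siRNA than in each without, and changed by 0.21 ± 0.04 (SE, edgeR adjusted p = 8.3e-05) in the double knockdown and 0.22 ± 0.04 (SE, adjusted p = 5.3e-05) in the Btg1 knockdown.

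Ogdh, the dehydrogenase of the oxoglutarate dehydrogenase complex, had 394, 409 and 433 CPM with both siRNAs, 398, 401 and 417 with Btg1 siRNA alone, 364, 362 and 373 with Btg2 siRNA alone and 359, 370.1 and 372 with scramble. It changed by 0.17 ± 0.04 (SE, edgeR adjusted p = 0.0014) in the double knockdown and 0.14 ± 0.04 (SE, adjusted p = 0.0054) in the Btg1 knockdown. Suclg1, the alpha subunit shared by both succinyl-CoA ligases, had 326, 336 and 350.2 CPM with both siRNAs, 327, 343 and 346 with Btg1 siRNA alone, 288, 293 and 291 with Btg2 siRNA alone and 300.2, 311 and 303 with scramble. It changed by 0.15 ± 0.04 (SE, edgeR adjusted p = 0.0026) in the double knockdown and 0.15 ± 0.04 (SE, adjusted p = 0.0022) in the Btg1 knockdown. For both genes the 6 libraries with Btg1 siRNA lay above the 6 without it.

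Idh3a and Fh each rose in the Btg1 knockdown and fell in the Btg2 knockdown. Idh3a, the catalytic subunit of the NAD-dependent isocitrate dehydrogenase, had 408, 428 and 416 CPM with both siRNAs, 431, 444 and 443 with Btg1 siRNA alone, 358, 373 and 366 with Btg2 siRNA alone and 383, 386 and 409 with scramble. It changed by 0.16 ± 0.04 (SE, edgeR adjusted p = 0.0013) in the Btg1 knockdown and -0.10 ± 0.04 (SE, adjusted p = 0.039) in the Btg2 knockdown. The last call was lost without scramble replicate 2 or 3 or Btg2 knockdown replicate 1 or 3 (edgeR adjusted p between 0.058 and 0.21). Fh, fumarase, which makes malate from fumarate, had 253, 263 and 275 CPM with both siRNAs, 297, 306 and 306 with Btg1 siRNA alone, 199.7, 216 and 211 with Btg2 siRNA alone and 261, 271 and 272 with scramble. The Btg1 knockdown was highest and the Btg2 knockdown lowest with no overlap with any other group, while the double knockdown overlapped with scramble. Fh changed by 0.18 ± 0.04 (SE, edgeR adjusted p = 0.001) in the Btg1 knockdown, -0.36 ± 0.04 (SE, adjusted p = 3.5e-07) in the Btg2 knockdown, 0.34 ± 0.04 (SE, adjusted p = 6.4e-07) in the double against the Btg2 knockdown and -0.20 ± 0.04 (SE, adjusted p = 0.00061) in the double against the Btg1 knockdown. In the double knockdown against scramble it was -0.03 ± 0.04 (SE, edgeR adjusted p = 0.65), which did not pass.

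Sucla2, the beta subunit of the ADP-forming succinyl-CoA ligase, had 327, 352 and 330.0 CPM with both siRNAs, 339, 332 and 322 with Btg1 siRNA alone, 293, 306 and 305 with Btg2 siRNA alone and 334, 325 and 332 with scramble. It changed by -0.13 ± 0.04 (SE, edgeR adjusted p = 0.0097) in the Btg2 knockdown, a call lost without Btg2 knockdown replicate 1 (adjusted p = 0.053). Mdh2, the mitochondrial malate dehydrogenase that closes the cycle, had 712, 727 and 745 CPM with both siRNAs, 726, 775 and 768 with Btg1 siRNA alone, 655, 672 and 651 with Btg2 siRNA alone and 709, 724 and 729 with scramble. It changed by -0.13 ± 0.04 (SE, edgeR adjusted p = 0.011) in the Btg2 knockdown. The 3 Btg2 knockdown libraries were below all other libraries for both genes. Idh3b, the beta subunit of the NAD-dependent isocitrate dehydrogenase, had 275, 293 and 295 CPM with both siRNAs against 262, 264 and 263 with Btg2 siRNA alone. With Btg1 siRNA alone it had 275, 287 and 277 CPM, and with scramble 273, 281 and 287. It passed only in the double against the Btg2 knockdown (0.13 ± 0.04 (SE, edgeR adjusted p = 0.01)).

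Each siRNA was tested against a partner group in 2 sets of libraries that share none, once without and once with the other siRNA. The 2 tests still share the estimate of each gene's spread, which came from all 4 groups. For Btg1 siRNA these are the Btg1 knockdown against scramble and the double against the Btg2 knockdown. Called in both, and higher in both, were 6 genes, all of the TCA cycle (Cs, Idh2, Idh3a, Ogdh, Suclg1 and Fh), which are 85.7% of the calls in the Btg1 knockdown and 25.0% of those in the double against the Btg2 knockdown. Over all tested genes, the shares called in both were 51.7% and 58.5%, opposite directions included. Of these 2362 genes called in both, 2097 changed in the same direction. Changes had the same sign for 37 of the 51 genes (72.5%), against 65.2% of all tested genes. For Btg2 siRNA the pairs are the Btg2 knockdown against scramble and the double against the Btg1 knockdown. Called in both, and lower in both, were 4 genes (Ndufa4, Fh, Sdhd and Ndufa2), which are 20.0% of the calls in the Btg2 knockdown and 66.7% of those in the double against the Btg1 knockdown. Over all tested genes, these shares were 36.9% and 49.7%, again with opposite directions included. Of these 1387 genes called in both, 1101 changed in the same direction. In the double against the Btg1 knockdown, Ndufa4 and Fh held under all alternatives run, and Sdhd and Ndufa2 did not. The sign was the same for 39 genes (76.5%), against 59.4% of all tested genes.

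**Figure D5:**
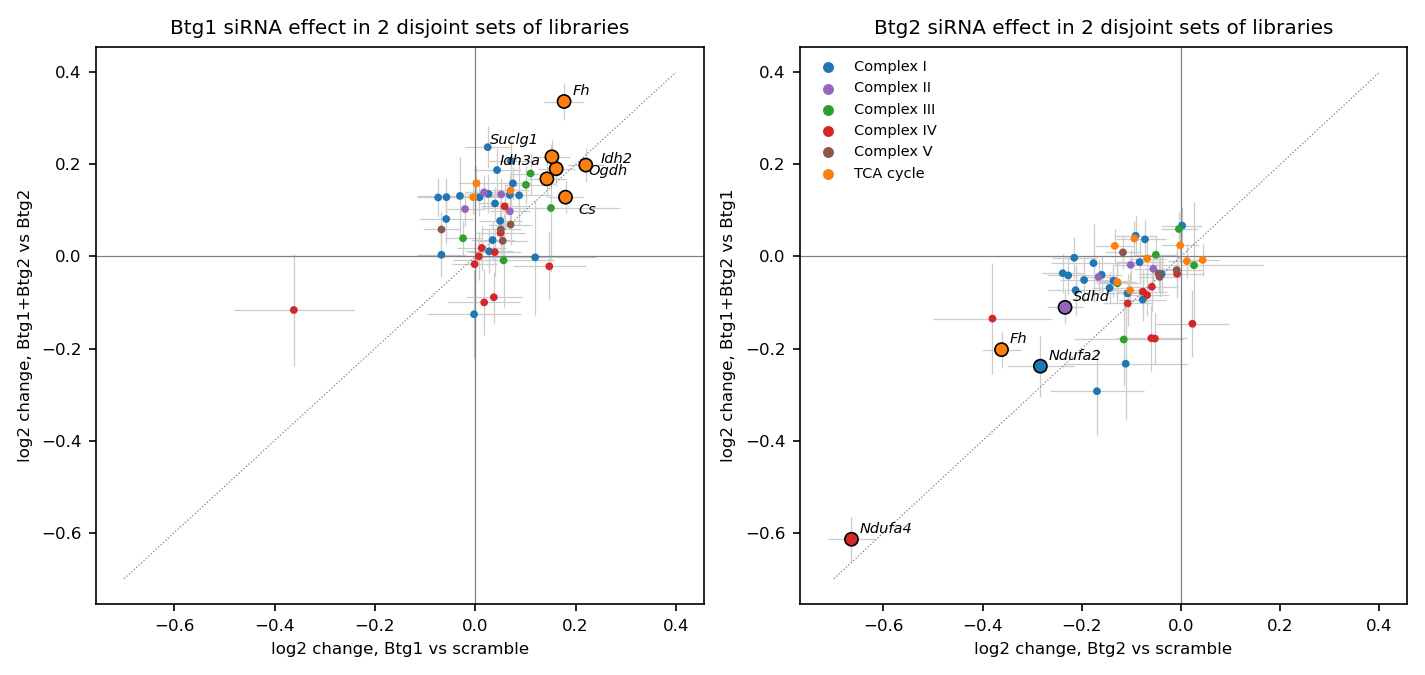
Log2 change of the 51 genes for each siRNA given without the other (x axis) and added to the other (y axis), with standard errors and the line of equality. Outlined and named points were called in both. The 6 called in both for Btg1 siRNA are TCA cycle genes above 0, and Ndufa4 is the lowest of the 4 called in both for Btg2 siRNA.

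Whether the effects of the siRNAs added up on the log2 scale was tested by an interaction term over all 4 groups. It passed for 4 of 51 genes (7.84%, against 15.1% of all tested genes, 4.99% higher and 10.1% lower), Ndufb10, Ndufs8, Ndufa8 and Sucla2, in each case with the double knockdown above the sum of the single effects. The departure was 0.21 ± 0.06 (SE, edgeR adjusted p = 0.027) for Ndufb10, 0.20 ± 0.06 (SE, adjusted p = 0.025) for Ndufs8, 0.19 ± 0.06 (SE, adjusted p = 0.038) for Ndufa8 and 0.16 ± 0.05 (SE, adjusted p = 0.05) for Sucla2. The count was 9 with library size alone, 0 without Btg2 knockdown replicate 3 and 11 without double knockdown replicate 1. It was 1 or 2 without any 1 scramble replicate, without double knockdown replicate 2, without Btg1 knockdown replicate 1 or 2 or without Btg2 knockdown replicate 1 or 2.

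Genes of the same pathways outside the 51 were followed in lists of their own, to be read against the 38.9%, 36.5% and 30.0% of all tested genes called in the double, Btg1 and Btg2 knockdowns. Among 15 other complex I subunits tested, 0 rose and 5 fell in the double knockdown, 2 rose and 1 fell in the Btg1 knockdown, and 0 rose and 10 fell in the Btg2 knockdown (33.3%, 20.0% and 66.7% called). In the Btg2 knockdown Ndufb4 fell by 0.23, Ndufs5 by 0.27 and Ndufv3 by 0.18 on the log2 scale. In the double knockdown Ndufb4 fell by 0.20, Ndufs5 by 0.17 and Ndufv3 by 0.21. In the Btg1 knockdown Ndufv3 fell by 0.16, while the 2 genes that rose did so by at most 0.14. Among 10 other complex III and IV genes with cytochrome c, 0 rose and 2 fell in the double knockdown, 0 passed in the Btg1 knockdown, also at an unadjusted p under 0.05 and by DESeq2 and limma, and 0 rose and 4 fell in the Btg2 knockdown (20.0%, 0% and 40.0% called). Among 13 other complex V genes, 0 passed in the double and the Btg1 knockdown, where 1 and 2 had an unadjusted p under 0.05 and DESeq2 called 1 lower in the double knockdown, and 2 (Atp5mc1 and Atp5f1d) fell in the Btg2 knockdown (15.4% called).

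Uqcrh, the hinge subunit of complex III that holds cytochrome c, was lower in the same groups as Ndufa4. Uqcrh had 214, 235 and 248 CPM with both siRNAs, 321, 361 and 363 with Btg1 siRNA alone, 219.7, 222 and 203 with Btg2 siRNA alone and 322, 333 and 316 with scramble. The 6 libraries with Btg2 siRNA lay below the 6 without it. Changes were -0.48 ± 0.05 (SE, edgeR adjusted p = 4.9e-07) in the double knockdown, -0.59 ± 0.05 (SE, adjusted p = 6.6e-08) in the Btg2 knockdown and -0.58 ± 0.05 (SE, adjusted p = 2.1e-07) in the double against the Btg1 knockdown.

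Among 18 other TCA cycle and pyruvate dehydrogenase genes, 5 rose and 6 fell in the double knockdown, 7 rose and 7 fell in the Btg1 knockdown, and 2 rose and 6 fell in the Btg2 knockdown (61.1%, 77.8% and 44.4% called). Dld, the dehydrogenase shared by the pyruvate and oxoglutarate dehydrogenase complexes, had 246, 257 and 235 CPM with both siRNAs, 241, 238 and 245 with Btg1 siRNA alone, 348, 355 and 351 with Btg2 siRNA alone and 349, 337 and 358 with scramble. It was lower in the 6 libraries with Btg1 siRNA. The log2 changes were -0.50 ± 0.04 (SE, edgeR adjusted p = 4.8e-10) in the double and -0.53 ± 0.04 (SE, adjusted p = 3.3e-10) in the Btg1 knockdown. Idh3g, a regulatory subunit of isocitrate dehydrogenase, had 237, 236 and 264 CPM with both siRNAs, 305, 304 and 312 with Btg1 siRNA alone, 242, 247 and 246 with Btg2 siRNA alone and 332, 344 and 334 with scramble. The changes were -0.45 ± 0.04 (SE, edgeR adjusted p = 6.5e-09) in the double, -0.13 ± 0.04 (SE, adjusted p = 0.011) in the Btg1 and -0.46 ± 0.04 (SE, adjusted p = 1.7e-08) in the Btg2 knockdown. Cardiomyocyte, fibroblast, smooth muscle, endothelial and macrophage marker sums moved with the groups too, as given above, and their part in these changes was not tested.

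Kinases of pyruvate dehydrogenase also changed. Pdk2, a kinase that switches the enzyme off, had 136, 138 and 148 CPM with both siRNAs, 176, 186 and 161 with Btg1 siRNA alone, 129.6, 130.2 and 133 with Btg2 siRNA alone and 213, 213 and 204 with scramble. The changes were -0.58 ± 0.05 (SE, edgeR adjusted p = 1.1e-09), -0.27 ± 0.05 (SE, adjusted p = 6.6e-05) and -0.68 ± 0.05 (SE, adjusted p = 4.5e-10) in the double, Btg1 and Btg2 knockdowns. Pdk3, another such kinase, had 42.7, 43.04 and 44.9 CPM with both siRNAs, 58.5, 54.7 and 56.00 with Btg1 siRNA alone, 30.3, 33.4 and 33.7 with Btg2 siRNA alone and 35.7, 36.7 and 38.97 with scramble. It rose by 0.23 on the log2 scale in the double knockdown and by 0.60 with Btg1 siRNA alone, and fell by 0.20 with Btg2 siRNA alone. Pc, pyruvate carboxylase, which feeds oxaloacetate into the cycle, fell by 0.48 on the log2 scale in the double and in the Btg2 knockdown and by 0.30 in the Btg1 knockdown.

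Among 37 assembly factors of the respiratory complexes tested, 14 rose, 5 fell and 18 did not pass in the double knockdown, with a median log2 change of 0.03. In the Btg1 knockdown 5 rose and 4 fell, and in the Btg2 knockdown 2 rose and 4 fell. These are 51.4%, 24.3% and 16.2% called, against 38.9%, 36.5% and 30.0% of all tested genes. Tmem70, needed for the assembly of ATP synthase, had 70.6, 77.03 and 73.8 CPM with both siRNAs, 67.3, 68.04 and 64.4 with Btg1 siRNA alone, 60.6, 59.5 and 59.04 with Btg2 siRNA alone and 48.8, 45.8 and 47.5 with scramble. The changes were 0.64 ± 0.05 (SE, edgeR adjusted p = 2.8e-10), 0.49 ± 0.05 (SE, adjusted p = 2.3e-08) and 0.34 ± 0.05 (SE, adjusted p = 1.3e-05) in the double, Btg1 and Btg2 knockdowns. No knockdown library of Tmem70 overlapped with scramble. Ttc19, which acts on complex III, had 44.5, 48.9 and 49.9 CPM with both siRNAs, 41.2, 40.99 and 40.2 with Btg1 siRNA alone, 45.3, 47.97 and 49.6 with Btg2 siRNA alone and 36.7, 35.6 and 35.5 with scramble. It rose by 0.41 on the log2 scale in the double and in the Btg2 knockdown and by 0.18 in the Btg1 knockdown, and every knockdown library lay above every scramble library. Cox15, of haem a synthesis for complex IV, rose by 0.27 in the double knockdown. In the Btg1 knockdown Sdhaf1, for complex II, fell by 0.29 and Coa5, for complex IV, rose by 0.17. In the double knockdown Sdhaf1 fell by 0.13 and Coa5 rose by 0.11, and Sdhaf1 fell by 0.12 in the Btg2 knockdown. Also in the Btg2 knockdown Atpaf2, for ATP synthase, fell by 0.21.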

How the data were processed

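RNA was measured in 12 libraries, 3 in each of 4 groups taken from the labels. Per the labels' protocols, total RNA went through Ovation RNA-Seq v2 amplification and Nextera XT library construction and was sequenced in pairs. The tools and build named in the submitters' processing notes are FastQC, Trim Galore, cutadapt, STAR, featureCounts and rn5. Not given in the sources used here are their versions, the annotation, the strand setting and how reads were counted. Raw read counts, whole numbers per gene symbol, and a table of TPM were deposited by the authors. Small counts were more often even than odd (13201 against 10440 of those from 1 to 10), so both mates of a pair may have been counted. Without molecular identifiers, amplified reads are not independent molecules.

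From the deposited counts, edgeR 4.0.16 (R 4.3.3; filterByExpr, TMM scaling, robust quasi-likelihood, 1 mean per group, 8 residual degrees of freedom) tested 12535 genes and removed 4884. P-values were adjusted by Benjamini-Hochberg over all tested genes in each of 6 comparisons and called at 0.05. CPM include the TMM factors (0.971 to 1.02), which makes 1 count equal to 0.0213 to 0.0422 CPM. The edgeR common coefficient of variation was 4.97%. No libraries were identical. Chi-square values per degree of freedom within groups were 4.07 to 4.82 for scramble, 5.81 to 8.01 for the Btg2 knockdown and 6.76 to 11.4 for the Btg1 knockdown. They were highest, at 12.8 to 25.7, for the double knockdown, whose libraries thus differed most. TPM served for levels across genes, sums and isoform ratios. The edgeR step was tested on simulated data.

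The 51 genes and all gene lists were chosen with earlier results of these data known. All may be named. Library values are given for those that pass in a comparison, for some only in the groups compared. From each list of other pathway genes up to 3 with the smallest p per comparison with scramble were eligible. Of the 52 listed symbols, 4 were matched by a current name (Atp5f1a, Atp5f1b, Atp5f1c and Atp5po). A planned ratio of Cox7a1 to Cox7a2 was not analysed here. Promoter windows came from RefSeq on GRCr8, which differs from rn5, and were read as letters only. Alternatives were RLE size factors, library size alone, DESeq2 1.42.0, no filter, a replicate block, limma 3.58.1 on log2(TPM + 1) and log2(TPM + 0.1), only the groups compared, CPM in place of TPM, and each library left out.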

Additional observations from a re-analysis of the deposited data

Results flagged for a closer look

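In 4 genes the effect of either siRNA differed with the other present, by an interaction term in edgeR over all 4 groups. The double knockdown lay above the sum of the single log2 effects by 0.202 in Ndufs8 (adjusted p = 0.025), 0.186 in Ndufa8 (adjusted p = 0.038), 0.212 in Ndufb10 (adjusted p = 0.027) and 0.157 in Sucla2 (adjusted p = 0.05). In each of the 4, the 3 Btg2 knockdown libraries lay below the other 9. Each call was lost without at least 5 of the 12 libraries in turn (edgeR adjusted p between 0.05 and 0.12 in those fits). In the groups of 3 libraries no sample was tested for standing apart.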

How the results depend on the processing

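Of the single-gene calls, 72 values were recomputed 1028 times: 893 kept their direction and their side of the threshold, 135 kept the direction and lost the call, and 0 changed sign. The calls that held under all alternatives were 7 of 11 in the double knockdown, 6 of 7 in the Btg1 knockdown and 14 of 20 in the Btg2 knockdown against scramble, 17 of 24 in the double against the Btg2 knockdown, 2 of 6 in the double against the Btg1 knockdown and 0 of 4 in the interaction. With only the groups compared in the fit, 11 genes were called in the Btg1 knockdown in place of 7. With library size alone, 9 were called in the interaction in place of 4. The complex I sum of the Btg1 knockdown was 102.1% of scramble in CPM against 101.0% in TPM. The cause was not tested. With 1 library left out, counts ran from 7 to 19, 6 to 8 and 15 to 19 in the double, Btg1 and Btg2 knockdowns against scramble, 19 to 29 in the double against the Btg2 knockdown, 2 to 14 in the double against the Btg1 knockdown and 0 to 11 in the interaction. Same-numbered libraries had correlations of -0.092 to 0.0599 in their deviations from the group means, 0 of 18 over 0.1, and 3 of 12 libraries correlated best with their own number. No pairing by number was seen, but a small effect of a shared culture or preparation could go unseen in such correlations. With the replicate block the counts were 9, 7, 20, 24, 5 and 4 in the same order. The fit with only the groups compared was not run for the interaction, which uses all 4. With 3 libraries a group, the smallest called change was 0.101 in size on the log2 scale, in the Btg2 knockdown. Larger changes also went uncalled, such as -0.233 in the double against the Btg1 knockdown and 0.245 in the interaction. A gene without a call may therefore have changed by more than 0.1.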
